A study of Mus musculus with 19 samples.

Results

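Obstructed kidneys of CD5L KO mice given recombinant CD5L (CD5L KO + rCD5L) were compared with obstructed kidneys of wild-type mice given PBS (WT + PBS). The kidneys were taken by their labels and made up 10 of the 19 kidneys measured by bulk RNA-seq, 5 in each group. The comparison asks how close replacing the protein brought the knockout kidney to the kidney of a mouse that made its own. Every mouse was a male of 8 to 9 weeks on the C57BL/6J background, and all underwent unilateral ureteral obstruction (UUO), in which the left ureter is tied off and cut. The CD5L KO mice lacked Cd5l and received 0.5 mg rCD5L, mouse CD5L made in the hamster cell line CHO-S, by intraperitoneal injection every day, while the WT mice kept the gene and received the same volume of PBS. The kidneys were perfused with heparin and harvested on day 12. Genotype and injection differed together between the groups, so the part of each in a difference cannot be told apart here. The numbers 1 to 5 below are the replicate numbers of the labels, and levels are CPM, counts scaled to the same library total, after TMM scaling, which are not divided by gene length and are compared only between kidneys.

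CD5L, also called apoptosis inhibitor of macrophage, is a secreted scavenger receptor cysteine-rich protein that tissue macrophages produce. It circulates bound to the IgM pentamer, is set free from it in kidney injury, and marks cell debris for uptake. After the ureter is closed, urine pressure injures the tubules, leukocytes enter, and pericytes and fibroblasts turn into contractile, matrix-producing myofibroblasts. Tubular cells lose transporters and mitochondria while the capillary network thins, so markers of each of these cell types are a readout of the course of the injury.

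Cd5l (ENSMUSG00000015854, GRCm38 chromosome 3, 87357881 to 87371073, plus strand) had 0 counts in each of the 5 CD5L KO + rCD5L kidneys, which allows up to 3 counts in each. The WT + PBS kidneys 1 to 5 had 13, 12, 6, 9 and 5 counts. Every WT kidney thus lay above every KO kidney, as the genotype labels state, although the transcript was rare in whole kidney even where the gene was intact. Injected protein is not seen by RNA-seq. Cd5l did not reach the count filter of the main test. In fits that kept it the adjusted p was 0.00135 (DESeq2) and 0.0332 (edgeR's quasi-likelihood test on all 19 kidneys).

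Total counts were 19151070 to 23815770 in the CD5L KO + rCD5L kidneys and 17917491 to 23165536 in the WT + PBS kidneys, and 21981 to 24804 genes had a count. Markers of proximal tubule, thick ascending limb, collecting duct, podocyte, endothelium, fibroblast and macrophage were present in all 10 kidneys. Among the KO kidneys, 2 stood apart. In KO kidney 4 the mitochondrially encoded genes took 10.26% of counts, against 2.76% to 3.934% in the other 9 kidneys, and its TMM factor was 0.7085, against 0.9153 to 1.076. Its proximal tubule marker Slc34a1, the main phosphate transporter, had 5530 CPM, where the other kidneys had 487 to 1140 CPM. KO kidney 3 had 101 CPM of the small nuclear RNA Rn7sk, against 1.77 to 4.92 CPM in the others, and 16.6 CPM of Acta1, skeletal muscle actin, against 0.13 to 1.29 CPM. The labels name no reason for either, and none was tested. The overall counts, the gene lists and most named genes are therefore given with all 10 kidneys and again without KO kidneys 3 and 4, a choice made after the data were seen.

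The genes that set KO kidney 4 apart included tubular and matrix genes. H19, Cilp and Col6a5 set both kidneys apart, being higher in KO kidney 3 and lower in KO kidney 4. KO kidney 4 was farthest above the other 4 KO kidneys in Gm6300, Cyp2d12, Ces1g, Slc22a7, Slc7a13, Clec2h, Dnase1, Egf, Pzp and Cyp4a12a, several of which mark normal tubules. Egf, made by the distal nephron, had 740.8 CPM there against a mean of 30.73 CPM in the other KO kidneys and 60.53 CPM in WT + PBS. It was farthest below them in Thbs4, H19, Cilp, Col10a1, Col6a5, Plekhs1, Dcstamp, Cpxm2, Myoc and Gfra2. Thbs4, a thrombospondin of injured matrix, had 0.3689 CPM there against 31.19 CPM. KO kidney 4 thus held more proximal tubule transcript (90196 CPM summed over the marker list, others 7832 to 15412) and less matrix transcript (7355 CPM, others 11548 to 21347) than any other kidney.

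The distance of a kidney from the WT mean was taken as the root mean square of log2 differences over 17330 genes. A WT kidney was measured against the mean of the other WT kidneys, without itself. It was 0.401, 0.343, 0.687, 1.055 and 0.357 in the CD5L KO + rCD5L kidneys 1 to 5 and 0.352, 0.302, 0.371, 0.329 and 0.311 in the WT + PBS kidneys. KO kidneys 2 and 5 lay within the range of the WT kidneys, KO kidney 1 lay just outside it, and KO kidneys 3 and 4 lay far outside. Counted by genes, KO kidneys 1 to 5 were more than 2-fold from the WT mean in 571, 368, 1895, 4885 and 353 genes, and the WT kidneys in 237 to 416. A WT kidney was thus measured against a mean of fewer kidneys than a KO kidney was. Distances between single kidneys do not rest on such a mean. Across the groups they had a median of 0.483 (0.411 to 1.154), and 0.456 (0.411 to 0.501) without KO kidneys 3 and 4, against 0.417 (0.385 to 0.481) between WT kidneys. Between the KO kidneys themselves the median was 0.753 (0.400 to 1.095), and 0.436 (0.400 to 0.467) among KO kidneys 1, 2 and 5. In a principal component analysis, the first component (49.3% of the variance) held KO kidney 4 at 120.3 and all others between -27.96 and 13.47, and the second (19.1%) held KO kidney 3 at 75.1 and the others between -16.51 and 9.311. On the third (7.23%), KO kidneys 1, 2 and 5 lay at 25.73, 18.79 and 18.85, above the WT kidneys (-27.84 to 0.9457), and KO kidneys 3 and 4 lay at -3.418 and 0.2273.

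**Figure D1:**
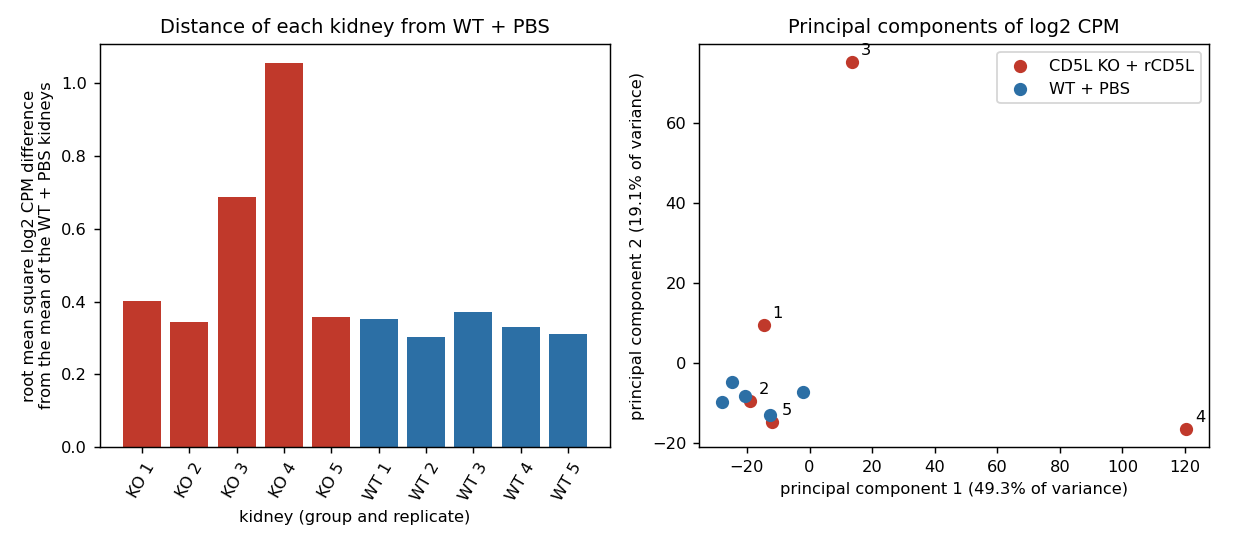
Distance of each kidney from the WT + PBS mean (root mean square of log2 CPM differences over 17330 genes) and the first 2 principal components, with 1 point per kidney and replicate numbers beside the points. A WT kidney was measured against the mean of the other WT kidneys. KO kidneys 3 (0.687) and 4 (1.055) lie far from all others, and the other 3 KO kidneys lie between 0.343 and 0.401, beside the WT kidneys at 0.302 to 0.371.

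No gene passed the test between the groups. edgeR's quasi-likelihood test called 0 of 17330 genes (0%) at an adjusted p under 0.05, and the smallest adjusted p was 0.305. At an unadjusted p under 0.05 there were 1745 genes (10.1%), of which 906 (5.23%) had a higher mean in CD5L KO + rCD5L and 839 (4.84%) a lower one. In 579 genes (3.34%) the 5 kidneys of one group did not overlap the 5 of the other, 208 (1.20%) with the KO kidneys above and 371 (2.14%) with them below. Of all tested genes, 53.2% had a higher mean in CD5L KO + rCD5L, and the median log2 fold change was 0.02.

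Missing the threshold does not show that the kidneys were alike. The 95% interval of the log2 fold change lay within 2-fold in 12985 genes (74.9%), and for the rest it reached beyond a 2-fold difference. The spread within the groups was wide, with a common biological coefficient of variation of 27.4%. It was 18.4% without KO kidney 4 and 13% without KO kidneys 3 and 4. With these 2 kidneys left out, edgeR called 1 of 17906 genes (0.00558%), which was Lpar1, while DESeq2 called 335 on the same kidneys (71 higher and 264 lower). The intervals of edgeR then lay within 2-fold in 83.0% of genes. Non-overlap was then met by 737 genes with the KO kidneys above (4.12%) and 872 with them below (4.87%), and 50.3% of genes had a higher mean.

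With all 5 KO kidneys kept, genes called by other tools were mostly lower in the KO kidneys. DESeq2 called 46 genes (8 higher and 38 lower) and limma voom with sample weights 57 (8 and 49). edgeR on all 19 kidneys, where the remaining groups enter the filter (18454 genes tested), the scaling and the estimate of spread, called 34 (2 and 32). The weights of KO kidneys 3 and 4 in limma voom were 0.129 and 0.0979, against 1.08 to 2.33 for the others. In all, 83 genes were called by any of these 3 fits and 19 by all of them. Of the 19, Cry1 was among the 2 that were higher in CD5L KO + rCD5L, and Acta2, Coro6, Ednrb, Gm42047, Igfbp1, Itga8, Lpar1, Mcam, Neat1, Nr1d1, Pde3a, Pecam1, Peg3, Ptprb, Slc43a1, Tcp11l2 and Thbs1 were lower. The fits share the kidneys and are not independent of each other.

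Contractile genes of smooth muscle and myofibroblasts had lower means in the treated KO kidneys. Of the 20 genes tested, edgeR called 0 with these 10 kidneys, DESeq2 2 (Acta2 and Myl9), and limma voom and the 19-kidney fit 1 each (Acta2). Over all genes DESeq2 called 46 of 19560, limma voom 57 of 17330 and the 19-kidney fit 34 of 18454. DESeq2 without KO kidneys 3 and 4 called 3 of the list, and 335 of 15390 genes in all. In all, 17 had a lower mean, 9 had an unadjusted p under 0.05 with a lower mean (all genes 4.84%), and in 3 the groups did not overlap with the KO kidneys below, against 2.14% of all genes. The median log2 fold change of the list was -0.52, against 0.02 over all genes. Without KO kidneys 3 and 4 it was -0.29, and 18 of 20 means were lower. The mean log2 level of the list, set against the WT mean, was -0.19, -0.34, -0.43, -1.31 and -0.44 in KO kidneys 1 to 5 and ran from -0.35 to 0.29 in the WT kidneys. KO kidney 4 was lowest, and WT kidney 3, the lowest of its group, lay below KO kidneys 1 and 2. In bulk tissue, fewer contractile cells and less contractile RNA per cell cannot be told apart.

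The promoters of Acta2 and Myl9 are shown because both genes encode parts of the contractile apparatus and are classical targets of serum response factor, which binds CArG boxes. The sequences are from RefSeq on GRCm38.p6 and cover the bases 250 to 51 before the annotated start, at chr19:34255424-34255623 (minus strand) for Acta2 and chr2:156775214-156775413 (plus strand) for Myl9. Capitals mark a match to the CArG box on either strand, and Acta2 has no strict match in this window, which says only that these letters are not in it.
Acta2: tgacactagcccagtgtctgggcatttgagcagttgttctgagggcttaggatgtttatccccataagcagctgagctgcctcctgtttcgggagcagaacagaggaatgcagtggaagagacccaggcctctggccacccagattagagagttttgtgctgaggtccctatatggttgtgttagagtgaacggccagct
Myl9: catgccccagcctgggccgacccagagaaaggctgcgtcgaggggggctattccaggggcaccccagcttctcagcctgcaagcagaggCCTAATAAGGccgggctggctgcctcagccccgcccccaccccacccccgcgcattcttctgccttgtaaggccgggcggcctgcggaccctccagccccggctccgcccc
In Myl9 the match CCTAATAAGG begins 161 bases before the start. A match was found in 380 of 32851 RefSeq windows of the same size (1.16%), and it describes the sequence without showing that a factor binds there.

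Acta2 (ENSMUSG00000035783, chromosome 19, 34241090 to 34255336), alpha smooth muscle actin and the standard marker of myofibroblasts, had 277, 237, 249, 218 and 269 CPM in the CD5L KO + rCD5L kidneys and 423, 462, 331, 560 and 383 CPM in the WT + PBS kidneys. All treated KO kidneys lay below all WT kidneys, and the KO kidneys were close to each other, the 2 that stood apart included. The means were 250 ± 23.9 and 432 ± 86.7 CPM (SD, n = 5 each), a log2 fold change of -0.79 (SE 0.15, 95% interval -1.12 to -0.46, edgeR adjusted p = 0.348, range over the alternatives 6.28e-05 to 0.688). Without KO kidneys 3 and 4 it was -0.73. Myl9, the regulatory light chain of smooth muscle myosin, had 125, 117, 126, 104 and 122 CPM against 185, 177, 150, 213 and 146 CPM. Its groups did not overlap either, with a log2 fold change of -0.55 (95% interval -0.82 to -0.28) and -0.52 without the 2 kidneys. Myh11, the smooth muscle myosin heavy chain, and Cnn1, calponin, had log2 fold changes of -0.91 and -0.92 (-0.64 and -0.65 without the 2 kidneys), and their groups overlapped.

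Matrix genes, the products of activated fibroblasts, had lower means as well. Of 44 fibrillar and matrix genes tested, edgeR called 0 with these 10 kidneys, DESeq2 and the 19-kidney fit 1 each (Thbs1) and limma voom 2 (Thbs1 and Col14a1). Over all genes these 3 fits called 46 of 19560, 34 of 18454 and 57 of 17330. DESeq2 without KO kidneys 3 and 4 called 7 of the list, and 335 of 15390 genes in all. By mean, 41 were lower, 9 of them with an unadjusted p under 0.05 (all genes 4.84%). Their median log2 fold change was -0.41, and -0.37 without KO kidneys 3 and 4, when 42 of 44 means were lower and 6 genes lay below without overlap, against 4.87% of all genes. With all 10 kidneys 2 genes did so, against 2.14%. The list level set against the WT mean was -0.09, -0.34, 0.05, -1.64 and -0.60 in KO kidneys 1 to 5 and -0.23 to 0.22 in the WT kidneys. KO kidneys 1 and 3 lay within the range of the WT kidneys and the other 3 lay below it. Col14a1, a collagen that sits on fibril surfaces, had 127, 142, 158, 131 and 137 CPM against 210, 192, 162, 200 and 174 CPM, with no overlap but KO kidney 3 close to WT kidney 3. Its log2 fold change was -0.43 (95% interval -0.68 to -0.19), and -0.48 without the 2 kidneys. Thbs1, the matricellular protein thrombospondin that releases latent TGF-beta, had 357, 284, 273, 221 and 262 CPM against 380, 435, 418, 539 and 433 CPM. All KO kidneys lay below all WT kidneys, by -0.66 in log2 (95% interval -0.98 to -0.33) and by -0.55 without the 2 kidneys. Fbn1, fibrillin, had a log2 fold change of -0.65 and Col8a1, a basement membrane collagen, of -0.46 (-0.58 and -0.38 without the 2 kidneys), with overlapping groups in both.

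Of 33 genes of TGF-beta and BMP signalling, 25 had a lower mean and 2 lay below without overlap (all genes 2.14%), and the median was -0.20 (-0.09 without KO kidneys 3 and 4). Tgfb1, the main profibrotic ligand, had 105, 76.9, 161, 37 and 68.8 CPM in the KO kidneys and 74.9 to 95.9 CPM in the WT kidneys, so KO kidneys 3 and 4 lay on opposite sides of the WT range. Its log2 fold change of 0.14 had an interval of -0.52 to 0.80, and it was 0.03 without the 2 kidneys. Tgfb3 had a log2 fold change of -0.45 (95% interval -1.17 to 0.28, and -0.41 without the 2 kidneys), and KO kidney 4, at 7.16 CPM, was its lowest. Pdgfra, a receptor of fibroblasts and pericytes and the defining fibroblast marker used here, had 182, 202, 129, 72.6 and 176 CPM in the KO kidneys and 261, 240, 249, 253 and 240 CPM in the WT kidneys. All KO kidneys were lower, KO kidneys 4 and 3 most so (log2 fold change -0.70, 95% interval -1.20 to -0.21, edgeR adjusted p = 0.471, and -0.41 without them). The fibroblast marker Dcn, decorin, overlapped between the groups at 129 to 446 against 332 to 548 CPM.

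Endothelial genes mostly had lower means, by a smaller amount that was nearly as large without the 2 kidneys. Of 29 tested, edgeR called 0 with these 10 kidneys, DESeq2 and the 19-kidney fit 1 each (Pecam1) and limma voom 6, among them Pecam1, Erg and Cdh5. Over all genes these 3 fits called 46 of 19560, 34 of 18454 and 57 of 17330. DESeq2 without KO kidneys 3 and 4 called 13 of the list, and 335 of 15390 genes in all. In all, 24 had a lower mean, 11 had an unadjusted p under 0.05 with a lower mean (all genes 4.84%), and 3 lay below without overlap, against 2.14% of all genes. The median log2 fold change was -0.30, and -0.27 without KO kidneys 3 and 4, where 12 of 29 genes lay below without overlap, against 4.87% of all genes. The list level set against the WT mean was -0.12, -0.35, -0.18, -0.50 and -0.34 in KO kidneys 1 to 5, below the lowest WT kidney at -0.08 in every case. The sum of the list was 1575 to 1910 CPM in the KO kidneys and 1878 to 2231 CPM in the WT kidneys. Pecam1, the endothelial adhesion molecule CD31, had 146, 151, 131, 140 and 156 CPM against 196, 212, 187, 197 and 187 CPM. The spread was small in both groups and the highest KO kidney lay clear of the lowest WT kidney. The means were 145 ± 9.93 and 196 ± 10 CPM (SD, n = 5 each), a log2 fold change of -0.43 (95% interval -0.64 to -0.22, edgeR adjusted p = 0.447, 7.51e-06 to 0.688 over the alternatives), and -0.38 without the 2 kidneys. Erg, a transcription factor of endothelial identity, had 25.7, 23.7, 17.9, 23.8 and 21.9 CPM against 30.9, 32.5, 30.2, 32.8 and 29.6 CPM. Again no kidney crossed over, and the log2 fold change was -0.46 (-0.39 without the 2 kidneys). The vessel growth factor Angpt2 (-0.57, and -0.49 without the 2 kidneys) and the junction cadherin Cdh5 (-0.46 and -0.51) had overlapping groups.

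**Figure D2:**
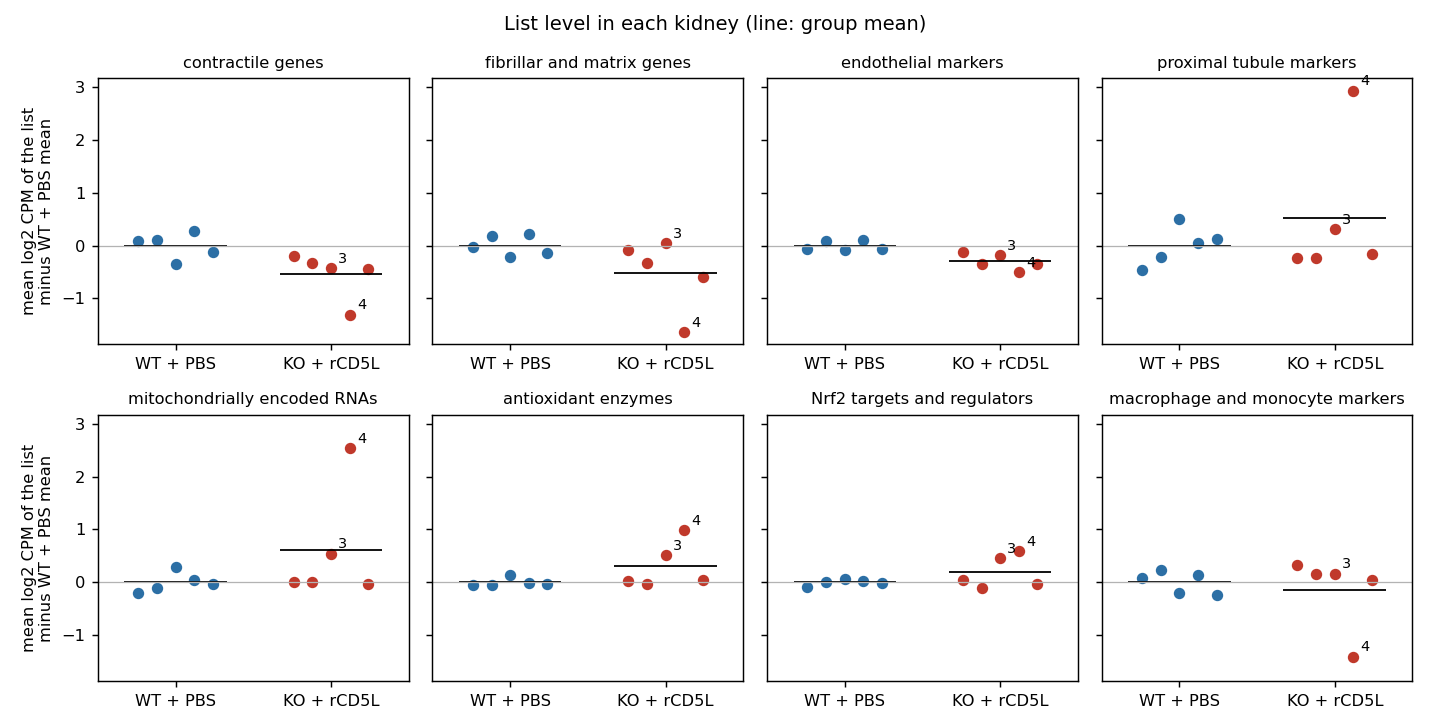
Mean log2 CPM over each of 8 gene lists in every kidney, set against the mean of the WT + PBS kidneys (0), with KO kidneys 3 and 4 numbered. All 5 KO kidneys lie below all WT kidneys for endothelial markers (-0.12 or lower against -0.08 or higher), while the proximal tubule and mitochondrial lists are highest in KO kidney 4 (2.94 and 2.54), with KO kidney 3 at 0.31 and 0.54.

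Lpar1 and Ednrb encode receptors, and both were lower in every KO kidney than in any WT kidney. Lpar1 (ENSMUSG00000038668, chromosome 4, 58435255 to 58553898), a lysophosphatidic acid receptor through which fibroblasts are recruited in kidney fibrosis, had 20.7, 19.2, 18.4, 12.6 and 22.2 CPM in the KO kidneys and 32.1, 33.3, 31.4, 31.2 and 30.6 CPM in the WT kidneys. The WT kidneys were tightly grouped and every KO kidney lay below them. The log2 fold change was -0.77 (SE 0.14, 95% interval -1.07 to -0.46, edgeR adjusted p = 0.305, 2.4e-08 to 0.688 over the alternatives). Without KO kidneys 3 and 4 it was -0.62 and the adjusted p was 0.0485, the only gene that edgeR called there. Ednrb, the endothelin B receptor of endothelium and collecting duct, had 37.5, 37.8, 23.5, 34.2 and 50.5 CPM against 60.4, 80.2, 66.5, 83.4 and 63.6 CPM. KO kidney 3 was lowest and the groups did not overlap (-0.95, 95% interval -1.34 to -0.55, and -0.76 without the 2 kidneys).

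Further genes of the same rank were Slc43a1, an amino acid transporter, at -1.28, Igfbp1, an insulin-like growth factor binding protein, at -1.22, Coro6 at -1.13, Gm42047 at -0.95, Peg3, an imprinted zinc finger gene, at -0.90 and Robo3 at -0.89 (log2 fold changes). In all 6 the KO kidneys lay below the WT kidneys without overlap. With all 10 kidneys edgeR called 0 of them, while DESeq2 and limma voom each called all 6 and edgeR on all 19 kidneys called all but Robo3. The 6 values were -1.20, -1.15, -1.04, -0.79, -0.70 and -0.91 in that order without KO kidneys 3 and 4. Igfbp1 had 8.47, 5.65, 5.51, 8.93 and 10.2 CPM against 20.2, 18.5, 21.7, 16.4 and 13.1 CPM. The long noncoding RNA Neat1, the scaffold of nuclear paraspeckles, had 430, 616, 330, 554 and 714 CPM against 1093, 1078, 1115, 1043 and 927 CPM. Every KO kidney was lower, KO kidney 3 the lowest, and the log2 fold change was -0.99 (95% interval -1.42 to -0.57), and -0.85 without the 2 kidneys. Of 11 long noncoding and abundant nuclear RNAs tested, 9 had a lower mean.

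Immediate early genes, which are transcribed within minutes of a stimulus, had lower means in part. With these 10 kidneys edgeR called 0 of the list, DESeq2 1, and limma voom and the 19-kidney fit 0. Over all genes DESeq2 called 46 of 19560, limma voom 57 of 17330 and the 19-kidney fit 34 of 18454. Of 33 tested, 23 had a lower mean, 8 of them with an unadjusted p under 0.05 (all genes 4.84%), and 2 lay below without overlap, against 2.14% of all genes. The median was -0.18, and -0.15 without KO kidneys 3 and 4. Nr4a1, an orphan nuclear receptor, had 19.1, 17.9, 14.5, 16.2 and 25.2 CPM against 39.1, 44.9, 66.8, 39.8 and 28.7 CPM. WT kidney 3 was far above the rest and WT kidney 5 was near KO kidney 5, yet no KO kidney reached a WT kidney (-1.24, 95% interval -1.72 to -0.76, and -1.08 without the 2 kidneys). Fos, a subunit of AP-1, had 10.3 to 32.2 CPM in the KO kidneys, with a median of 17.7, and 22.9 to 101 CPM in the WT kidneys. Its groups overlapped, and WT kidney 3 was again the highest (-1.44, 95% interval -2.32 to -0.56, and -1.16 without the 2 kidneys). Egr2 (-0.47, and -0.35 without the 2 kidneys) and Nr4a3 (-1.13 and -0.97) overlapped too.

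**Figure D3:**
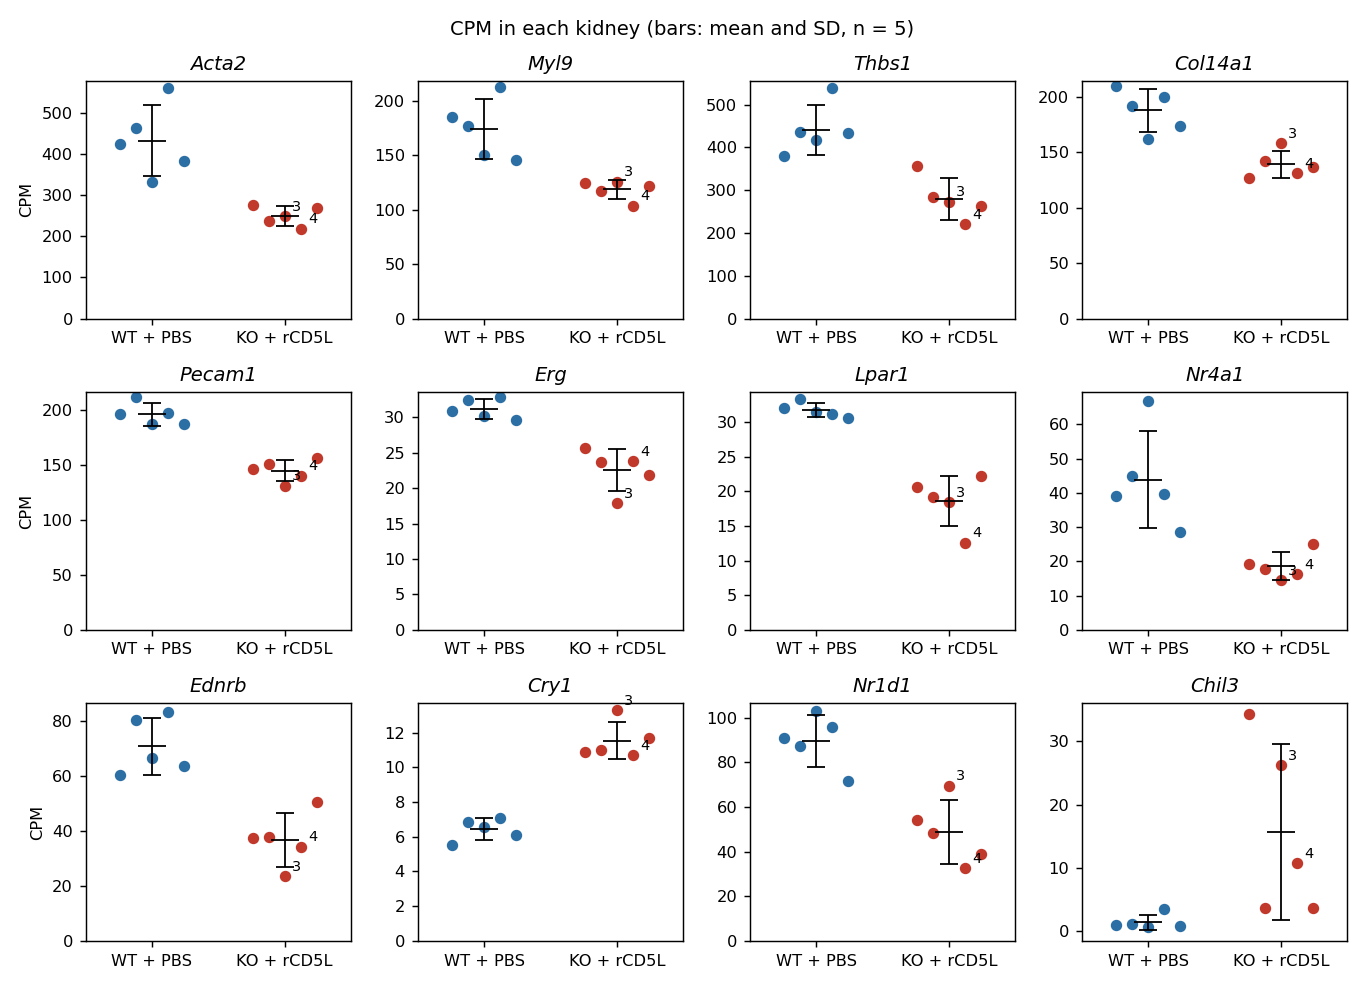
CPM of 12 genes in each kidney, with 1 point per kidney and the mean ± SD of each group (n = 5). Cry1 and Chil3 lie higher and the other 10 lower in all 5 CD5L KO + rCD5L kidneys, for example Acta2 at 218 to 277 against 331 to 560 CPM.

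The highest-ranked gene with a higher mean was Cry1 (ENSMUSG00000020038, chromosome 10, 85131700 to 85185064), a repressor of the circadian clock. Clock genes are driven through E-boxes by CLOCK and BMAL1 and cycle over the day. The hour of harvest is not given in the sources used here. The RefSeq promoter of Cry1 on GRCm38.p6, bases 250 to 51 before the start (chr10:85185105-85185304, minus strand), is shown with the E-box CACGTG in capitals, a motif that reads the same on both strands.
Cry1: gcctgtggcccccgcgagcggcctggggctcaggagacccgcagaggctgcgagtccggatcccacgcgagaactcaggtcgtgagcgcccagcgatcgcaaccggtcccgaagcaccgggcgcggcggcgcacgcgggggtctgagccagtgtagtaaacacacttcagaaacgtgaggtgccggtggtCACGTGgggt
The match begins 60 bases before the start, and 1425 of 32851 RefSeq windows of this size (4.34%) hold one.

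Cry1 had 10.9, 11, 13.3, 10.7 and 11.7 CPM in the CD5L KO + rCD5L kidneys and 5.52, 6.87, 6.57, 7.08 and 6.1 CPM in the WT + PBS kidneys. The groups were far apart for their spread, with KO kidney 3 the highest and KO kidney 4 the lowest of the KO kidneys. The means were 11.5 ± 1.04 and 6.43 ± 0.628 CPM (SD, n = 5 each), a log2 fold change of 0.84 (SE 0.13, 95% interval 0.56 to 1.12, edgeR adjusted p = 0.305, 7.21e-06 to 0.688 over the alternatives), and 0.80 without the 2 kidneys. Nr1d1, the clock repressor REV-ERB alpha, had 54, 48.3, 69.6, 32.6 and 38.8 CPM against 90.8, 87.5, 103, 95.8 and 71.5 CPM. Every KO kidney lay below every WT kidney, KO kidney 3 only just, and the log2 fold change was -0.88 (95% interval -1.30 to -0.47), and -0.93 without the 2 kidneys. Nr1d1 overlaps Thra, and without a stated strand setting reads of the shared stretch cannot be assigned to one of them. Per2, another clock repressor, overlapped at 20.8 to 50.8 against 18.8 to 29.9 CPM (0.58, and 0.46 without the 2 kidneys).

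Cry1 and Nr1d1 were not typical of the clock list. Of 23 clock genes tested, 12 had a higher mean, the median was 0.04 (-0.01 without KO kidneys 3 and 4), and Cry1 and Nr1d1 were among the 3 members without overlap, against 3.34% of all genes. Of 22 glucocorticoid-responsive genes, which follow adrenal rhythm and stress, 11 had a higher mean and the median was 0.00 (-0.15 without the 2 kidneys).

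Chil3 and Retnla, secreted proteins of alternatively activated mouse macrophages, had large fold differences. Chil3 had 34.3, 3.63, 26.2, 10.7 and 3.68 CPM in the KO kidneys and 0.906, 1.18, 0.602, 3.57 and 0.768 CPM in the WT kidneys. The KO kidneys varied widely among themselves, and KO kidneys 2 and 5 lay only just above WT kidney 4. The log2 fold change was 3.50 (SE 0.74, 95% interval 1.88 to 5.13, edgeR adjusted p = 0.419, 0.0059 to 0.688 over the alternatives), and 3.33 without KO kidneys 3 and 4. Chil3 has a close paralog in Chil4, and how reads that match both were counted is not given in the sources used here. Retnla had 84.8, 93, 46, 4.87 and 31.4 CPM against 22.7, 4.43, 12.5, 3.62 and 11.6 CPM. KO kidney 4 fell into the WT range and the other 4 KO kidneys lay above it (2.25, 95% interval 0.75 to 3.75, and 2.66 without KO kidneys 3 and 4).

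The list of macrophage and monocyte markers, which includes Chil3, did not share this as a whole. Of 28 tested, 22 had a lower mean, 1 (Chil3 itself) lay above without overlap and 0 below (all genes 1.20% and 2.14%), and the median was -0.15. When KO kidneys 3 and 4 were left out, the median was 0.04 and 16 of 28 means were higher. KO kidney 4 carried that difference, with a list level of -1.41 and a sum of 1991 CPM, against 6167 to 6764 CPM in the other KO kidneys and 5626 to 7240 CPM in the WT kidneys. Adgre1, the macrophage marker F4/80, had 95.1, 117, 72.5, 32.4 and 115 CPM against 87.5 to 128 CPM. KO kidneys 3 and 4 lay below the WT range and the others inside it.

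Cytokine and chemokine genes had a median near 0 as a list. Of 40 cytokines and chemokines tested, 19 had a higher mean and 0 were without overlap (all genes 3.34%), with a median of -0.02. In the absence of KO kidneys 3 and 4 it was 0.11 over 41 genes, 25 means were higher and 6 lay above without overlap, against 4.12% of all genes. DESeq2 then called 6 members of the list, and 335 of 15390 genes in all. The chemokines it called were all higher, with log2 fold changes of 0.66 (Ccl2), 0.51 (Ccl6), 0.98 (Ccl7), 0.42 (Ccl9) and 0.70 (Ccl12). Il1b, a cytokine of the inflammasome, had 13.4, 18.1, 6.06, 5.98 and 14.7 CPM against 21.3, 23.7, 20.5, 22.2 and 16.2 CPM. KO kidney 2 reached above WT kidney 5, and KO kidneys 3 and 4 were lowest (-0.83, 95% interval -1.47 to -0.19, and -0.44 without them). Ccl8, a monocyte chemokine, was at 5.09 to 34.1 against 6.5 to 16.6 CPM (0.91, and 1.18 without the 2 kidneys). Cxcl16, which also binds oxidized lipid, was at 100 to 259 against 208 to 262 CPM with KO kidney 4 lowest (-0.03 and 0.13).

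Lymphocyte and antigen presentation lists also had their lowest level in KO kidney 4, at -1.09 and -0.997 against the WT mean. T and NK cell markers had a median of 0.07, and of 0.27 without the 2 kidneys, when 29 of 32 means were higher and 1 gene lay above without overlap (all genes 4.12%). MHC class II and antigen presentation genes had medians of 0.16 and 0.25, with 22 and 23 of 26 means higher. Neutrophil genes and S100 alarmins had a median of -0.59 (-0.30 without the 2 kidneys, and -0.15 over the genes with at least 10 counts in every kidney), with 10 of 14 means lower. S100a9, an alarmin, was at 1.18 to 3.64 against 2.17 to 10.7 CPM, and Ripk3, a kinase of necroptosis, at 3.47 to 10.9 against 9.25 to 13.8 CPM, with KO kidney 4 the lowest in both.

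Markers of tubular injury had a median near 0 over the list, while their sum was higher in KO kidneys 1, 2, 3 and 5. It was 30545 to 34379 CPM in KO kidneys 1, 2 and 5, 33701 CPM in KO kidney 3 and 14168 CPM in KO kidney 4. The WT kidneys had 22638 to 29539 CPM. Without KO kidneys 3 and 4 DESeq2 called 3 of the list, and 335 of 15390 genes in all. Of 32 tested, 17 had a higher mean and 0 were without overlap (all genes 3.34%), with a median of 0.01 (0.06 without KO kidneys 3 and 4, where 22 means were higher and 3 genes lay above, against 4.12% of all genes). Havcr1, which encodes the injury receptor KIM-1, had 601, 634, 794, 278 and 698 CPM in the KO kidneys and 473, 554, 560, 416 and 596 CPM in the WT kidneys. KO kidney 4 lay below the WT range and the other 4 KO kidneys above it, some only just. The log2 fold change was 0.21 (95% interval -0.31 to 0.73), and 0.31 (0.07 to 0.54) without the 2 kidneys.

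The proximal tubule list had the highest median of the 45 lists, and it rested on KO kidney 4. Of 35 proximal tubule markers, 34 had a higher mean and the median log2 fold change was 1.29. In the list 0 genes lay above without overlap, against 1.20% of all genes. Without KO kidneys 3 and 4 the median was -0.21 and 31 of 35 means were lower. The sum of the list was 90196 CPM in KO kidney 4, 15412 CPM in KO kidney 3, 8770 to 9234 CPM in the other KO kidneys and 7832 to 15082 CPM in the WT kidneys. Miox, an enzyme of proximal tubules that degrades inositol, had 135, 141, 274, 2722 and 131 CPM against 92, 105, 231, 145 and 167 CPM. KO kidney 4 was far above all others and the rest overlapped, so the log2 fold change of 2.20 became -0.13 without KO kidneys 3 and 4. The anion transporter Slc22a8 went from 2.18 to -0.19 in the same way, and the transporters Slc17a1 from 1.32 to 0.19 and Slc17a3 from 1.42 to 0.07.

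All 12 mitochondrially encoded messengers had a higher mean, with a median of 0.90, and 3 of 12 without KO kidneys 3 and 4, with a median of -0.05. mt-Co3, a subunit of cytochrome c oxidase, had 608 CPM in KO kidney 4, 81.3 CPM in KO kidney 3 and 41.1 to 53.8 CPM in the remaining kidneys. Nuclear-encoded respiratory subunits had medians of 0.50 and 0.04 with all kidneys and without the 2, fatty acid oxidation genes 0.60 and -0.02, and distal nephron and collecting duct markers 0.28 and -0.02. In each of these lists KO kidney 4 was the highest of the 10 kidneys. Podocyte markers had a median of -0.21, and -0.03 without the 2 kidneys.

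**Figure D4:**
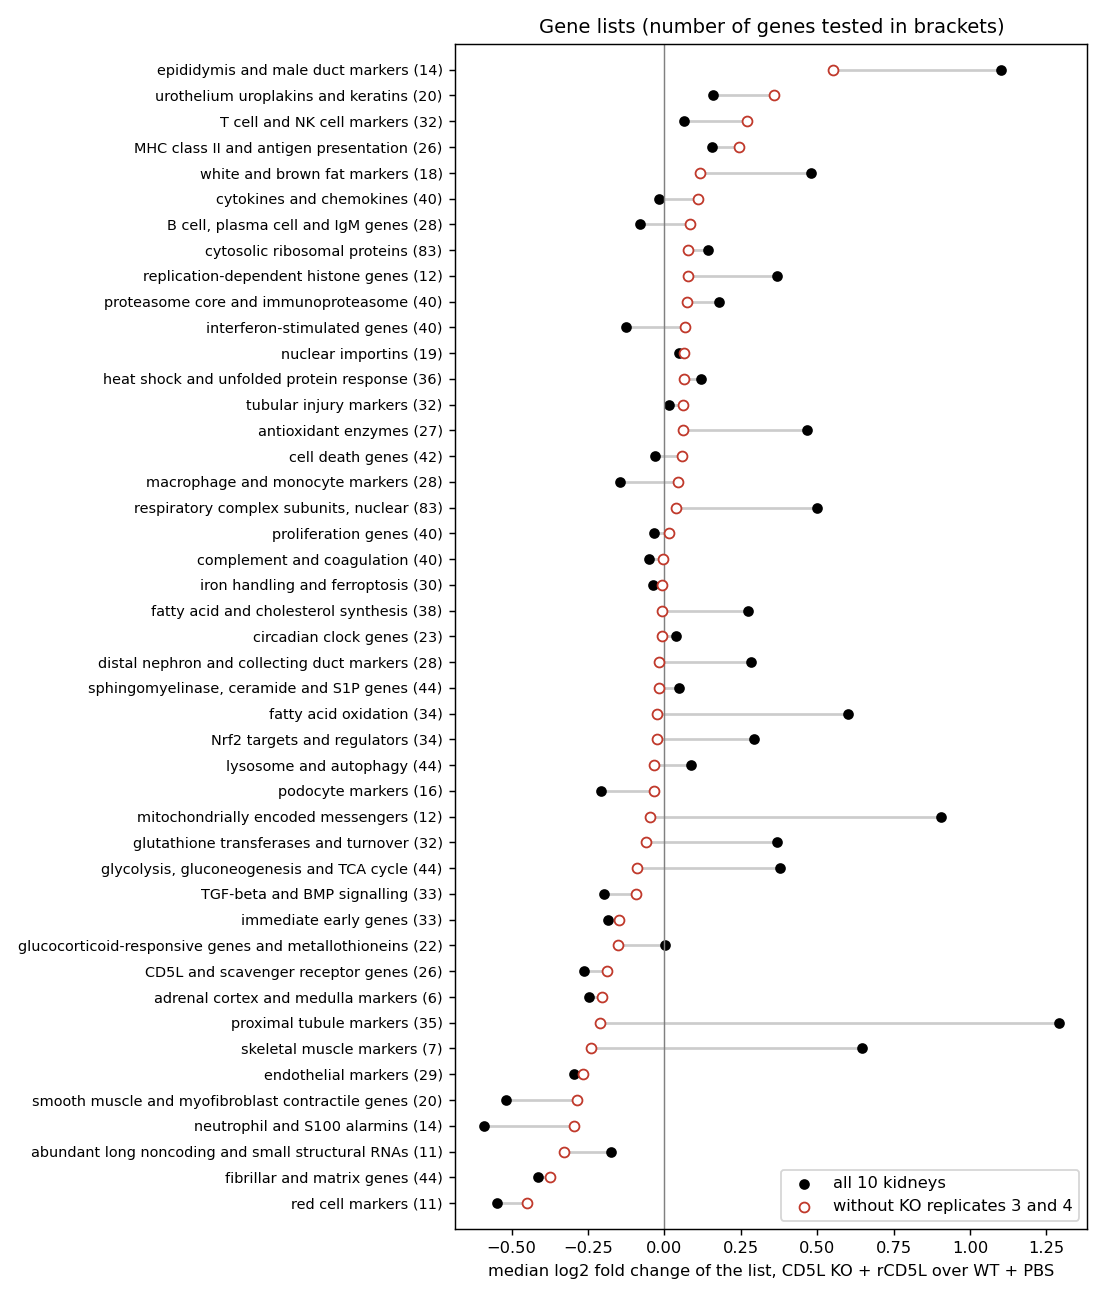
Median log2 fold change (CD5L KO + rCD5L against WT + PBS) of each of the 45 gene lists with all 10 kidneys and without KO kidneys 3 and 4. The proximal tubule list moves from 1.29 to -0.21 and the mitochondrially encoded list from 0.90 to -0.05, while the endothelial (-0.30 and -0.27) and matrix (-0.41 and -0.37) lists stay below 0.

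Targets of Nrf2, the transcription factor that induces antioxidant and glutathione enzymes, were highest as a list in KO kidneys 3 and 4. Of 34 targets and regulators tested, 27 had a higher mean, 0 lay above and 1 below without overlap (all genes 1.20% and 2.14%), and the median was 0.29. Without KO kidneys 3 and 4 the median was -0.02 and 16 of 35 means were higher. The list level set against the WT mean was 0.04, -0.11, 0.46, 0.59 and -0.02 in KO kidneys 1 to 5, so the 2 kidneys that stood apart were the only ones above the WT range of -0.09 to 0.06. Nfe2l2, which encodes Nrf2, had 184, 188, 142, 167 and 203 CPM against 179, 193, 192, 191 and 207 CPM (-0.12, 95% interval -0.37 to 0.13, and -0.01 without the 2 kidneys). Its repressor Keap1 was at 52 to 54 CPM in 4 KO kidneys, 81.4 CPM in KO kidney 3 and 48.5 to 53.7 CPM in the WT kidneys. For both genes the 95% interval excluded a 2-fold difference.

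Among the KO kidneys, the single Nrf2 targets named here were also highest in KO kidneys 3 and 4. Hmox1 and Srxn1 were highest in KO kidney 3 and the others in KO kidney 4. Nqo1, a quinone reductase, had 25.4, 17.8, 39.2, 112 and 26.4 CPM against 23.3, 25.3, 34, 29.2 and 27.5 CPM, with KO kidneys 4 and 3 highest and the other 3 below the WT median of 27.5 CPM. Its log2 fold change was 0.66 with all kidneys and -0.27 without the 2. Hmox1, heme oxygenase, was at 51.1, 56.4, 123, 102 and 69.9 against 59.2 to 82.7 CPM (0.24 and -0.20), and the thioredoxin reductase Txnrd1 at 118 to 236 against 106 to 138 CPM (0.40 and 0.05). Gclc and Gclm, the subunits of the rate-limiting enzyme of glutathione synthesis, had log2 fold changes of 0.29 and 0.67, and of -0.27 and 0.07 without the 2 kidneys. Srxn1, which repairs peroxiredoxins, went from 0.44 to 0.10 and Txn1, thioredoxin, from 0.24 to 0.08. Bach1, a repressor of Hmox1, was the member that lay below without overlap, at 45 to 60.7 against 61.2 to 70.9 CPM (-0.30, and -0.17 without the 2 kidneys).

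Antioxidant enzymes had a median of 0.47 over 27 genes, 0.06 without KO kidneys 3 and 4, and glutathione transferases 0.37 over 32 genes and -0.06. Sod1 was at 224 to 731 against 224 to 276 CPM (0.63 and -0.05), the secreted glutathione peroxidase Gpx3 at 4402 to 29700 against 3645 to 7237 CPM (1.11 and -0.14), and Gpx4, the peroxidase that protects against ferroptosis, at 459 to 1309 against 390 to 531 CPM (0.80 and 0.15). KO kidney 4 held the highest value in each. The peroxiredoxins Prdx1, Prdx2 and Prdx6 had log2 fold changes of 0.54, 0.20 and 0.21, and of 0.16, 0.07 and -0.13 without the 2 kidneys. Gsta1 had 0.169 to 1.52 CPM over all kidneys, and Gstp1 had 56.6 to 144 against 61.6 to 81.2 CPM. Both have near-identical relatives that may share reads.

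Iron handling and ferroptosis genes were balanced, with 14 of 30 means higher and a median of -0.04 (-0.01 without the 2 kidneys). Fth1, ferritin heavy chain, had 1964, 1631, 4111, 5253 and 1790 CPM against 1546, 1716, 2067, 1585 and 1660 CPM. KO kidneys 3 and 4 were far above all others, and without them the log2 fold change went from 0.78 to 0.06. Cp, ceruloplasmin, was at 257 to 1005 against 699 to 909 CPM (-0.20, and 0.19 without the 2 kidneys), the iron importer Slc11a2 at 70.7 to 138 against 65.8 to 72.9 CPM (0.37 and 0.04) and Slc39a14, which carries iron and zinc, at 45.8 to 67.4 against 52.9 to 75.5 CPM (-0.20 and -0.34).

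The sphingomyelinase, ceramide and sphingosine phosphate genes were close to 0 as a list. Of 44 tested, 27 had a higher mean, 1 lay above and 2 below without overlap (all genes 1.20% and 2.14%), and the median was 0.05 (-0.02 without KO kidneys 3 and 4). Smpd1, acid sphingomyelinase, had 70.6, 79.4, 121, 121 and 70.5 CPM against 72.1, 73.9, 85.1, 78.3 and 73.8 CPM. KO kidneys 3 and 4 were above the WT range and the others at or near it (0.27, 95% interval -0.11 to 0.65, and -0.06, -0.22 to 0.09, without them). Smpd2, a neutral sphingomyelinase, behaved alike (0.26 and -0.13), and Smpd3, another one, was at 1.18 to 3.2 against 0.632 to 1.63 CPM (0.93 and 0.95). Cers4, a ceramide synthase, lay below without overlap at 21.2 to 29.8 against 31.6 to 37.2 CPM (-0.38, and -0.32 without the 2 kidneys), and Ormdl2, which holds back ceramide synthesis, above at 22.8 to 30.7 against 14.1 to 21 CPM (0.43 and 0.35). S1pr1, a sphingosine phosphate receptor of endothelium, had 26, 24.7, 26, 29.3 and 36.8 CPM against 37.1, 46.8, 36, 56.8 and 42.9 CPM. Only KO kidney 5 reached the WT range, and the log2 fold change was -0.62 (-0.59 without the 2 kidneys). Of 19 nuclear importins, 12 had a higher mean with a median of 0.05, and 0 lay above without overlap. Without the 2 kidneys 14 means were higher, the median was 0.06 and 3 genes lay above, against 4.12% of all genes. DESeq2 then called 3 of the list, and 335 of 15390 genes in all. Kpna2, importin alpha, was at 47.3 to 61.9 against 36.7 to 49.1 CPM (0.37, and 0.44 without the 2 kidneys).

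Lists of housekeeping genes had slightly higher means. All 40 proteasome genes had a higher mean, with a median of 0.18 and 2 genes above without overlap (all genes 1.20%), and 30 of 40 and a median of 0.07 without KO kidneys 3 and 4. Of 83 cytosolic ribosomal protein genes, 81 had a higher mean and 8 lay above without overlap, against 1.20% of all genes (median 0.14). Without the 2 kidneys 64 of 83 means were higher, 14 lay above, against 4.12%, and the median was 0.08. Ribosomal protein genes have many processed pseudogenes that may share their reads. Psmg4, a proteasome assembly chaperone, lay above without overlap at 19.2 to 22.3 against 14.1 to 18 CPM (0.42, and 0.35 without the 2 kidneys). So did Arvcf, a catenin of cell junctions, at 47 to 59.5 against 41.4 to 44.2 CPM, Ajuba, a LIM protein of cell contacts, at 84.9 to 101 against 61.1 to 80.7 CPM, and Dynlt1b, a dynein light chain, at 14.1 to 15.4 against 9.94 to 13.5 CPM.

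Markers of tissue next to the kidney were read in the same way. Of 14 epididymis and male duct genes tested, 12 had a higher mean, 10 of them with an unadjusted p under 0.05 (all genes 5.23%), and 2 lay above without overlap (all genes 1.20%), with a median of 1.10 (0.55 without KO kidneys 3 and 4). Their sum was 63.2 to 117 CPM in the KO kidneys and 50.6 to 67.4 CPM in the WT kidneys, and none of the defining markers Gpx5, Lcn5 and Crisp1 was at 0 in any kidney. Lcn5, an epididymal lipocalin, had 8.34, 5.91, 15.2, 11.7 and 5.6 CPM against 4.31, 3.34, 2.5, 4.78 and 5.24 CPM. KO kidneys 3 and 4 were highest and KO kidney 5 lay only just above WT kidney 5 (1.21, and 0.71 without KO kidneys 3 and 4). Cuzd1 (log2 fold change 1.40, and 0.96 without the 2 kidneys) and Adam7 (3.88 to 9.28 against 1.75 to 3.57 CPM), both also expressed in the male tract, lay above without overlap too. Skeletal muscle markers summed to 42.3 CPM in KO kidney 3 and 6.14 to 9.62 CPM in the others. The part of such tissue in the other differences was not tested.

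Genes beside Cd5l were examined because sequence near a targeted gene can differ along with it. Within 10 Mb of Cd5l 271 genes were tested, edgeR called 0 with these 10 kidneys, and 6 (2.21%) did not overlap, against 3.34% of all genes. Within 2 Mb they were 2 of 84 (2.38%). They included Prcc (0.34), Zbtb7b (0.40) and Sema4a (0.33), with the KO kidneys above, and Fam198b (-0.66) and Rxfp1 (-1.50), with them below. The 5 values were 0.13, 0.15, 0.12, -0.41 and -0.85 in that order without KO kidneys 3 and 4. In the wider window DESeq2, edgeR on all 19 kidneys and limma voom with sample weights each called 2 genes, of which 1 was Cd5l itself in the DESeq2 and 19-kidney fits. Prcc had 47.4, 43.8, 64, 63.5 and 46.8 CPM against 40.3, 42.8, 43.6, 43 and 40.1 CPM, with KO kidneys 3 and 4 apart and KO kidney 2 only just above the WT kidneys.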

How the data were processed

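RNA-seq libraries were made by random priming from total RNA of whole obstructed kidneys, and the labels gave the group and replicate number of each. The authors deposited whole-number counts per gene, from reads that, per the submitters' processing notes, passed Trimmomatic, HISAT2 (GRCm38/mm10) and featureCounts. The authors also deposited FPKM values of the same counts. Tool versions, the strand setting and the treatment of reads with several matches are not given in the sources used here. Columns without a sample numbered 0, as did rows without a gene.

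Of 54532 genes, 31539 had a count in the 10 kidneys and 17330 passed filterByExpr (minimum count 10). The 2 groups were tested by the quasi-likelihood test of edgeR 4.0.16 under R 4.3.3, on counts with TMM factors and at a Benjamini-Hochberg adjusted p under 0.05. SE and intervals (95%) are of the log2 fold change. Alternatives used DESeq2 1.42.0, limma 3.58.1 (voom, and FPKM on the log2 scale with a pseudocount of 1 or 0.1), other scalings and filters, all 19 kidneys, a replicate block, a gene length offset, and kidneys left out. The scripts were tested on simulated counts. No molecular identifiers are named in the protocols, so limits on counts reflect the counting of reads alone. The labels do not say that replicates came from separate litters or cages, and p-values measure the spread between these mice.

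Genes are named because the study names them for the kidney, because their groups did not overlap and their unadjusted p was among the 10 smallest of a direction (mean log2 CPM of at least 1), because they were among up to 4 members of a list with the smallest unadjusted p, because they set a kidney apart (10 per direction), or as cell type markers. Genes called by several fits, and those near Cd5l without overlap, were named after their values were seen. The comparison, the 45 gene lists and these rules were chosen with earlier results of these data known. Gene lists were described by counts and medians. Replicates within a group differed by more than sampling noise (chi-square per degree of freedom 8.317 to 318.9 over 20 pairs). Promoters (RefSeq, GRCm38.p6) were searched for E-boxes and CArG boxes on both strands. Some genes that met these rules are not reported here.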

Additional observations from a re-analysis of the deposited data

Results flagged for a closer look

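In 273 groups of 5 kidneys (library measures, list levels and named genes), the highest or lowest kidney stood apart by Dixon's ratio (over 0.71) 44 times. Chance gives about 5% of independent groups. Some genes were named because they set a kidney apart, and lists share members, so the 44 cannot be weighed against that rate. KO kidney 4 accounted for 26 of the flags, KO kidney 3 for 4 and WT kidneys for 14. None was KO kidney 1, 2 or 5 (0 flags).

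KO kidney 4 had a mitochondrial share of 10.26%. Its list levels, as log2 differences from the WT mean, were high for mitochondrially encoded messengers (2.54), proximal tubule markers (2.93), fatty acid oxidation (1.71), distal nephron and collecting duct markers (1.07) and sphingolipid genes (0.081). They were low for contractile genes (-1.31), cytokines and chemokines (-0.934), macrophage markers (-1.41), neutrophil genes (-1.6), scavenger receptor genes (-1.34), MHC class II genes (-0.997), tubular injury markers (-0.983) and cell death genes (-0.514). Its genes that stood apart were Miox (2720 CPM), Slc17a1 (881), Slc22a8 (581), Slc17a3 (895), mt-Co3 (608), Gclm (459), Prdx1 (1480) and Ormdl2 (30.7) on the high side and Havcr1 (278), S100a9 (1.18), Ripk3 (3.47) and Cxcl16 (100) on the low side.

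KO kidney 3 stood apart in Rn7sk (101 CPM), Keap1 (81.4 CPM), the list level of cytosolic ribosomal proteins (0.455) and that of skeletal muscle markers (1.72). WT kidney 3 stood apart in antioxidant enzymes (0.145), nuclear-encoded respiratory subunits (0.185), urothelial genes (-1.34), Srxn1 (81.9 CPM) and Sod1 (276 CPM). WT kidney 1 did so in T and NK cell markers (0.718), MHC class II genes (0.443), fat markers (0.621), Dynlt1b (13.5 CPM) and Cxcl16 (262 CPM). The remaining flags were WT kidney 5 in tubular injury markers (0.0695) and cytosolic ribosomal proteins (-0.0926), WT kidney 2 in Col8a1 (114 CPM) and WT kidney 4 in Mmp8 (2.31 CPM).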

How the results depend on the processing

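The count of 0 called genes held in the fits with other scalings, filters, a robust dispersion, FPKM, a length offset, a minimum fold and each kidney left out in turn (0 to 0). It did not hold with DESeq2 (46 called, 8 higher, 38 lower), all 19 kidneys in 1 fit (34, 2 and 32), limma voom with sample weights (57, 8 and 49), edgeR without KO kidneys 3 and 4 (1 called, 1 lower) or DESeq2 without them (335, 71 and 264). The cause was not tested. Genes called within 10 Mb of Cd5l were 2 with each of DESeq2, all 19 kidneys and voom, and Cd5l itself was 1 of them in the first 2 fits. Genes without overlap between groups numbered 668 to 1099 with 1 kidney left out and 1609 without KO kidneys 3 and 4, where fewer kidneys have to separate.

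The groups share replicate numbers, but same-numbered kidneys did not deviate together (correlations 0.164, 0.115, 0.00805, -0.0457 and -0.00413), so the numbers were not taken as pairs. With a replicate block edgeR called 0 genes (1232 at an unadjusted p under 0.05, smallest adjusted p 0.622), and the log2 fold changes of Tgfb1 (-0.016) and Acta1 (-0.212) changed sign.

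Of 88 named genes 70 kept their direction in every alternative. With both KO kidneys 3 and 4 left out, the log2 fold change reversed for Miox (-0.126), Slc22a8 (-0.193), Nqo1 (-0.265), Gclc (-0.274), Hmox1 (-0.205), Sod1 (-0.0491), Gpx3 (-0.14), Prdx6 (-0.132), Gsta1 (-0.205), Gstp1 (-0.103), Adgre1 (0.0771), Cxcl16 (0.129), Smpd1 (-0.0636), Smpd2 (-0.132), Cp (0.187), Acta1 (-1.24) and Rn7sk (-0.404). With voom weights it did so for Slc22a8 (-0.181), Nqo1 (-0.252), Gclc (-0.165), Hmox1 (-0.15), Prdx6 (-0.0879), Gsta1 (-0.568), Gstp1 (-0.0608), Tgfb1 (-0.0437), Adgre1 (0.0551), Cxcl16 (0.117), Smpd1 (-0.00705), Smpd2 (-0.0716), Cp (0.153), Acta1 (-1.27) and Rn7sk (-0.238). FPKM reversed Tgfb1 (-0.0208 and -0.0338 with pseudocounts of 1 and 0.1). With 1 kidney left out the range crossed 0 for Tgfb1 (-0.18 to 0.327), Acta1 (-1.23 to 2.41), Rn7sk (-0.532 to 2.86), Slc22a8 (-0.00932 to 2.46), Nqo1 (-0.0433 to 0.859), Gclc (-0.0849 to 0.439), Cxcl16 (-0.104 to 0.141) and Cp (-0.354 to 0.0121). Of the 45 list medians 26 kept their sign without KO kidneys 3 and 4. Depth limits Cd5l, Gsta1 and other genes near 1 CPM, where a kidney holds few counts.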

Other observations

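The remaining gene lists are given as medians of the log2 fold change with all 10 kidneys and then without KO kidneys 3 and 4. CD5L and scavenger receptor genes were lower with both, at -0.26 and -0.19, with 22 of 26 and 23 of 28 means lower. In the list 1 of 26 and 4 of 28 genes lay below without overlap, against 2.14% and 4.87% of all genes. Interferon-stimulated genes had medians of -0.13 and 0.07, B cell, plasma cell and immunoglobulin genes -0.08 and 0.08, complement and coagulation genes -0.05 and 0.00, cell death genes -0.03 and 0.06, and proliferation genes -0.03 and 0.01. Heat shock and unfolded protein genes had medians of 0.12 and 0.06, lysosome and autophagy genes 0.09 and -0.03, glycolysis and gluconeogenesis genes 0.38 and -0.09, and fatty acid and cholesterol synthesis genes 0.27 and -0.01.

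Urothelial genes had medians of 0.16 and 0.36 and a level that varied more among the WT kidneys (lowest -1.34, WT kidney 3) than between the groups. Fat markers had medians of 0.48 and 0.12, adrenal markers -0.25 and -0.20 (with all 10 kidneys 0.06 with DESeq2 and 0.04 with no filter), red cell markers -0.55 and -0.45, skeletal muscle markers 0.65 and -0.24, replication-dependent histones 0.37 and 0.08, and long noncoding and nuclear RNAs -0.17 and -0.33. Meg3, an imprinted long noncoding RNA, had 7.13, 6.84, 10.1, 0.959 and 4.49 CPM in the KO kidneys and 19.6, 24.9, 11.4, 23.1 and 7.86 CPM in the WT kidneys, with a log2 fold change of -1.54 (-1.50 without the 2 kidneys). WT kidneys 3 and 5 lay near the KO kidneys and the other 3 WT kidneys far above.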
